A study of Sus scrofa domesticus with 36 samples.

Results

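TAGLN, ACTA2 and SYNPO2 are genes of the actin machinery that are widely read as marks of smooth muscle, the contractile tissue of vessel walls and hollow organs. They were taken as the rows of the deposited count table whose Ensembl identifiers carry these symbols (TAGLN ENSSSCG00000015073, ACTA2 ENSSSCG00000010447, SYNPO2 ENSSSCG00000009111), and so they are 3 of 25322 genes. In a Sscrofa11.1 gene table TAGLN lies on chromosome 9, ACTA2 on chromosome 14 and SYNPO2 on chromosome 8. The sources used here name no genome build for the counts, so no coordinates are given. Their levels and their co-variation were described in the subcutaneous backfat and in the longissimus dorsi, a long muscle beside the spine, of 18 young pigs. In backfat they were also set against ACTA1 (ENSSSCG00000010190, chromosome 14), the actin of skeletal muscle fibres.

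TAGLN encodes transgelin, a small calponin-like protein that binds actin filaments, and ACTA2 encodes the alpha actin of smooth muscle. Both genes are switched on by serum response factor (SRF) with its cofactors, and both are found in vascular smooth muscle, in many pericytes and in myofibroblasts. A known mark of the contractile myoepithelial cells around glands is ACTA2, which does not set TAGLN apart from these cells. SYNPO2 encodes synaptopodin-2, also called myopodin, which binds actin and filamin. It works both in smooth muscle and at the Z-disc of skeletal muscle, where it takes part with BAG3 in chaperone-assisted autophagy of damaged filamin. A bulk sample of fat or of muscle therefore holds several possible sources of each transcript.

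The pigs came from a Danbred 600 by Newsham NC32 cross and were sampled 3 weeks after weaning, per the labels' growth protocol, and each gave 1 backfat library, cut between rib 8 and the last rib, and 1 longissimus library. The submitters chose 9 of the slowest growers (up to percentile 10) and 9 pigs from percentiles 60 to 70 out of 1054, but the class of a pig is not in the labels used here, so growth was not compared. The breed label of the single samples carries another NC number in each library, and the labels' age of 16 to 17 days is at odds with sampling 3 weeks after weaning. Pigs are named below as the labels name them.

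Gene counts per library ranged between 2990913 and 5373406 in backfat and between 4716541 and 6216459 in longissimus. Levels are given as CPM, counts scaled to a fixed library size after trimmed-mean correction, and the scaling factors averaged 1.62 in backfat and 0.626 in longissimus, a gap that bears on every difference between the tissues. The tissue labels were borne out by 6 adipocyte genes, among them the lipid droplet gene PLIN1 and the adipokine gene CFD, whose summed level ran between 1273 and 2261 CPM in backfat, against 109.9 to 472 CPM in longissimus. Summed over 11 sarcomere genes, the level spanned 128 to 27305 CPM in backfat (lowest in pig Sample_991, highest in Sample_731) and 76151 to 456330 CPM in longissimus. The backfat samples thus differed widely in skeletal muscle RNA, and results in backfat are given below with ACTA1 or the sarcomere genes beside them. No 2 libraries held identical counts.

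TAGLN was the member that was higher in fat. Its level in backfat had a lowest value of 135.7 CPM (Sample_391), a median of 264 CPM and a highest value of 474 CPM (Sample_659), against 55.0 (Sample_735), 109 and 149 CPM (Sample_77) in longissimus. Of the 18 backfat libraries, 17 lay above every longissimus library, and backfat was higher than the same animal's muscle in 18 of 18 pigs. The mean was 279.5 ± 101 CPM in backfat and 107 ± 27.9 CPM in longissimus (SD, n = 18 each). The log2 difference, backfat minus longissimus, was 1.39 (SE 0.153, adjusted p = 1.04e-10, quasi-likelihood test of edgeR with Benjamini-Hochberg adjustment over 12542 genes). Within single pigs it spanned 0.20 (Sample_391) to 2.37 (Sample_659) on the log2 scale.

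ACTA2 did not follow TAGLN between the tissues. Its backfat level had a lowest value of 91.6 CPM (Sample_735), a median of 157 CPM and a highest value of 472 CPM (Sample_491), against 58.7 (Sample_735), 227 and 388 CPM (Sample_242) in longissimus. The tissues overlapped over most of their range, and backfat exceeded the animal's own muscle in 6 of 18 pigs. Means were 201.9 ± 125 CPM in backfat and 231.1 ± 85.6 CPM in longissimus (SD, n = 18 each), with a log2 difference of -0.19 (SE 0.233, adjusted p = 0.434, edgeR). The per-pig difference ran between -1.82 (Sample_391) and 1.60 (Sample_659), so that single animals differed in sign as well as in size. Scaling by library totals in place of trimmed-mean factors, under which the median of all genes is 1.505 in place of 0.14, turned the ACTA2 difference to 1.27 (adjusted p = 3.53e-06, edgeR). Without Sample_491, Sample_659, Sample_889 and Sample_998, it was -0.72, a value that leaving out the highest backfat levels of the gene lowers by construction and that is no test of the tissues.

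SYNPO2 was far higher in muscle. In backfat it had a lowest value of 19.5 CPM (Sample_835), a median of 35.9 CPM and a highest value of 165 CPM (Sample_731), against 1024 (Sample_735), 1883 and 2605 CPM (Sample_242) in longissimus. Every backfat library lay below every longissimus library. Means were 47.3 ± 35.4 CPM in backfat and 1884 ± 396 CPM in longissimus (SD, n = 18 each), and the log2 difference was -5.32 (SE 0.243, adjusted p = 7.07e-22, edgeR). ACTA1 was also lower in backfat, with a log2 difference of -6.03 (SE 0.725) and levels of 52.4, 644 and 17526 CPM (lowest, median, highest) in backfat, against 22408, 158796 and 314848 CPM in longissimus. The paralogue SYNPO2L, also a Z-disc gene, had a log2 difference of -6.82.

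**Figure D1:**
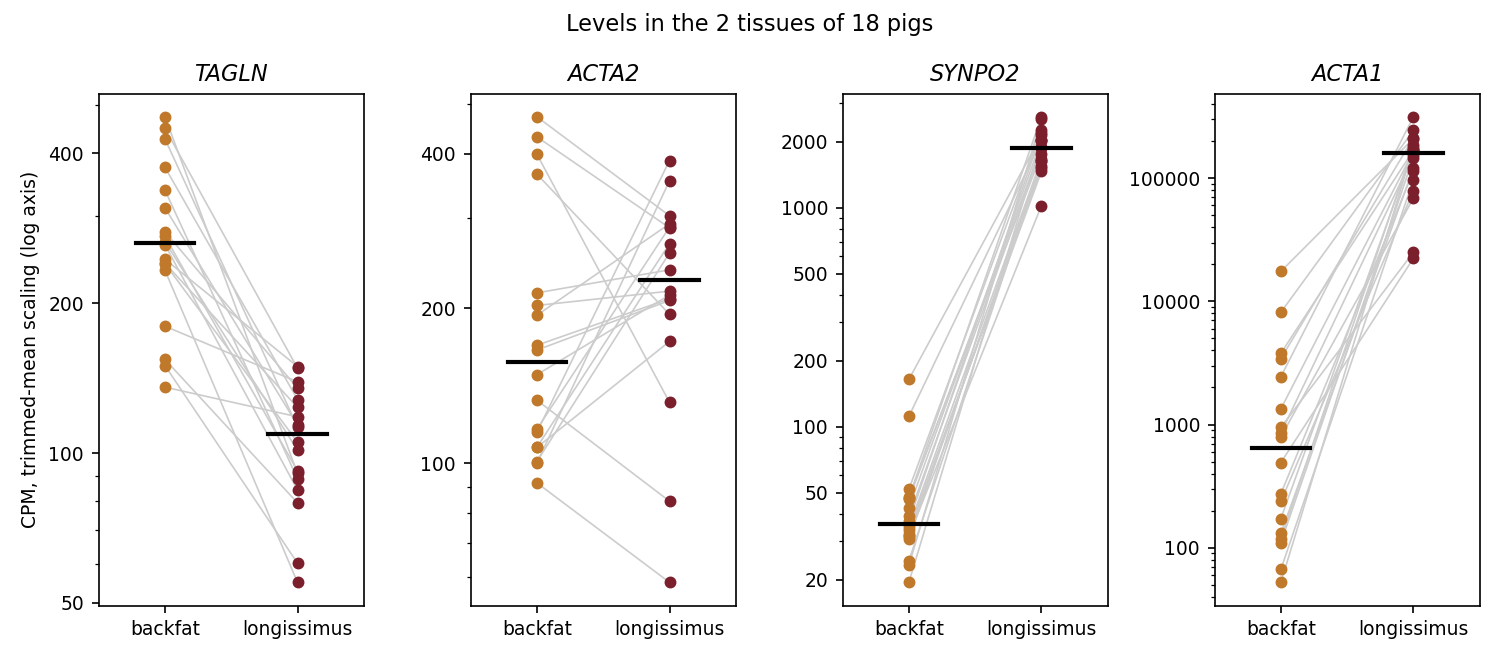
Levels of TAGLN, ACTA2, SYNPO2 and ACTA1 in backfat (left of each panel) and longissimus (right) of 18 pigs, in CPM on a log axis; points are libraries, grey lines join the tissues of a pig and black bars are medians. TAGLN lines fall towards longissimus in 18 of 18 pigs, SYNPO2 and ACTA1 lines rise in all 18, and ACTA2 lines run both ways, with 6 pigs higher in backfat.

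The genes also differed in how even they were among animals. The coefficient of variation in backfat was 35.98% for TAGLN, 62.0% for ACTA2 and 74.9% for SYNPO2, against 26.1%, 37.0% and 21.0% in longissimus. SYNPO2 thus spread 8.46-fold between its lowest and highest backfat library but 2.54-fold in longissimus. For TAGLN the spread was 3.49-fold in backfat and 2.71-fold in longissimus, and for ACTA2 it was 5.15-fold and 6.61-fold. The lowest count behind any of these values was 180 for TAGLN, 238 for ACTA2 and 147 for SYNPO2. The spread itself was not tested between tissues.

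A list of genes of the smooth muscle contractile apparatus, which includes TAGLN, ACTA2 and SYNPO2 themselves, went both ways. Of 20 listed genes 15 were matched by symbol and 14 passed the filter on low counts: 6 were higher in backfat, 7 were higher in longissimus and 1, ACTA2, did not pass the test. Over all 12542 genes tested, 46.7% were called higher in backfat and 39.2% higher in longissimus, so the list lies close to that background in both directions. Its median log2 difference was -0.31, against 0.14 over all genes. With library totals as the scaling, 10148 of the genes tested were called higher in backfat and 1520 higher in longissimus (5853 and 4919 with trimmed-mean factors), and the list's count became 9 higher in backfat and 5 higher in longissimus, with SMTN, VCL and ACTA2 changing sign. KCNMB1, a potassium channel subunit of smooth muscle, fell under the filter and had 0.744 to 13.6 CPM in backfat.

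Higher in backfat beside TAGLN were MYH11, the smooth muscle myosin heavy chain, at 3.66 (SE 0.378), the caldesmon gene CALD1 at 2.11 (SE 0.0824), the myosin light chain kinase gene MYLK at 1.67 (SE 0.148) and CSRP1, a LIM protein of smooth muscle, at 1.47 (SE 0.118). The enteric smooth muscle actin ACTG2 was higher too, at 1.38 (SE 0.458, adjusted p = 0.00599, edgeR), but not with pig number in the fit (0.61, adjusted p = 0.229). Higher in longissimus beside SYNPO2 were the tropomyosin genes TPM1 (-6.17, SE 0.437) and TPM2 (-5.70, SE 0.421) and the desmin gene DES (-6.09, SE 0.535), all of which striated muscle also uses. CNN1, the smooth muscle calponin, was lower in backfat at -2.21 (SE 0.352), which library totals shrank to -0.70 (adjusted p = 0.0429, edgeR). Vinculin (VCL, -0.94) and smoothelin (SMTN, -0.42) followed with smaller differences that library totals turned positive (0.48 and 0.97).

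**Figure D2:**
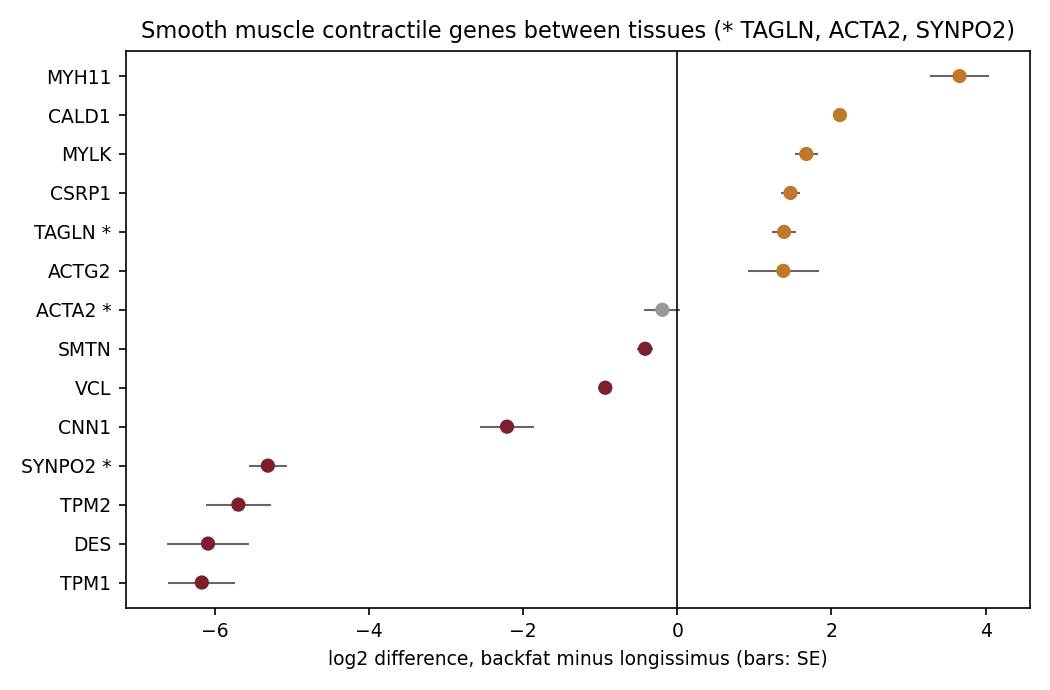
Log2 difference, backfat minus longissimus, of the 14 smooth muscle contractile genes that passed the filter, with SE bars; right of the line is higher in backfat, left is higher in longissimus and grey did not pass the test. TAGLN (1.39) stands with MYH11, CALD1, MYLK, CSRP1 and ACTG2, SYNPO2 (-5.32) with TPM1, TPM2 and DES, and ACTA2 (-0.19) between them.

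The closest relatives of the members were also split. In the actin family the cytoplasmic actins ACTB (0.62) and ACTG1 (0.49) and ACTG2 were higher in backfat, the striated muscle actins ACTA1 and ACTC1 (-5.87) were higher in longissimus, and ACTA2 did not pass. These actins encode near-identical proteins, and their coding sequences are similar. The deposited table is named as one of unique counts, without a statement of what was done with reads that match several genes. The level of each actin is therefore uncertain by an unknown amount. In the transgelin and calponin family TAGLN and CNN3 (1.31) were higher in backfat and CNN1 was lower.

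Lists for the cell types that could carry these genes are given beside all genes tested. Of all 12542, 46.7% were called higher in backfat and 39.2% higher in longissimus, or 10148 and 1520 genes with library totals. Of 7 pericyte genes 4 were higher in backfat, among them the platelet-derived growth factor receptor gene PDGFRB (1.63), and 1, the potassium channel subunit gene ABCC9 (-1.28), was higher in longissimus, a difference that library totals turned to 0.08, with counts of 6 and 0. The adhesion molecule gene MCAM (-0.12, adjusted p = 0.426, edgeR) and the receptor gene NOTCH3 (0.28) belong to the same list, whose median was 0.28. All 7 endothelial genes measured were higher in backfat, with a median of 0.77, as were all 9 fibroblast and myofibroblast genes, with a median of 2.48. All 11 sarcomere genes (median -6.04) and all 8 Z-disc genes (median -5.81) were higher in longissimus. In these bulk samples fewer cells of a type and less RNA per cell cannot be told apart.

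SYNPO2's partners in chaperone-assisted autophagy were on the muscle side. All 7 tested genes of that list, SYNPO2 included, were higher in longissimus, with a median of -2.15: the co-chaperone gene BAG3 at -2.15, the small heat shock protein gene HSPB8 at -5.84, the filamin C gene FLNC at -4.88, the ubiquitin ligase gene STUB1 at -1.54, the heat shock protein gene HSPA8 at -2.05 and the autophagy receptor gene SQSTM1 at -0.56. Over all genes 39.2% were called that way. With library totals 5 of the 7 stayed past the test in that direction, SQSTM1 turned to 0.75, STUB1 did not pass at -0.16 (adjusted p = 0.0756, edgeR), and BAG3 and HSPA8 shrank to -0.78 and -0.66. Among 10 tested regulators of the SRF and TGF-beta pathways 6 were higher in backfat, 3 were higher in longissimus and 1 did not pass, with a median of 0.82, shares near those over all genes (46.7% and 39.2%). With library totals these counts were 9 and 1. SRF itself was lower in backfat at -2.86 (SE 0.123), the transcription factor gene KLF4 and the receptor gene TGFBR2 were higher at 1.65 and 1.43, and SMAD3 was lower at -0.30. The SMAD3 call was lost with pig number in the fit (-0.26, adjusted p = 0.0519, edgeR) and without the 4 pigs highest in backfat ACTA1 (adjusted p = 0.0583, edgeR), and with library totals SMAD3 and the SRF cofactor gene MRTFA (-0.39) turned to 1.06 and 1.01.

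Whether the 3 genes vary together over animals was asked within each tissue with Spearman's rho on log2 CPM over 18 pigs and 100000 permutations. Each p was adjusted over all genes correlated with 1 of the 2 genes, 12601 in backfat and 11702 in longissimus. That gene was ACTA1 in every relation with ACTA1, TAGLN in the other relations of TAGLN, and ACTA2 in its relation with SYNPO2. The smallest p that these permutations can give is 1e-05, so genes pass only where at least 3 do so together. In all, 15 relations were computed for the members and ACTA1.

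TAGLN and ACTA2 were high in the same backfat samples. The 4 highest backfat levels of both genes came from the same 4 pigs, Sample_491, Sample_659, Sample_889 and Sample_998. They had 375 to 474 CPM of TAGLN, with the next library at 337 CPM, and 365 to 472 CPM of ACTA2, with the next library at 214 CPM. For ACTA2 these 4 libraries stood apart from the rest, so the relation was also computed within the other 14, where rho was 0.503 (p = 0.0690, permutation test) and r was 0.499. Leaving out the joint top of both genes lowers these values by construction. Over all 18, rho was 0.761 (p = 0.00044, adjusted p = 0.123, permutation test) and Pearson's r was 0.809 (p = 5e-05, adjusted p = 0.0384, permutation test). Adjusted over the genes correlated with ACTA2, the same rho had an adjusted p of 0.202 (permutation test). Without the 2 pigs farthest from the TAGLN median, r was 0.768. The rank correlation did not pass the adjusted threshold, while Pearson's r did.

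In longissimus the corresponding values were a rho of 0.432 (p = 0.0745, adjusted p = 0.652, permutation test) and an r of 0.460 (p = 0.0527, adjusted p = 0.430, permutation test). The lowest longissimus level of both genes was in Sample_735, and r was 0.319 without the 2 pigs farthest from the TAGLN median. The difference in rho, backfat minus longissimus, was 0.328 (p = 0.144, adjusted p = 0.216 over 3 pairs, permutation test swapping tissues within pigs), which did not pass.

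**Figure D3:**
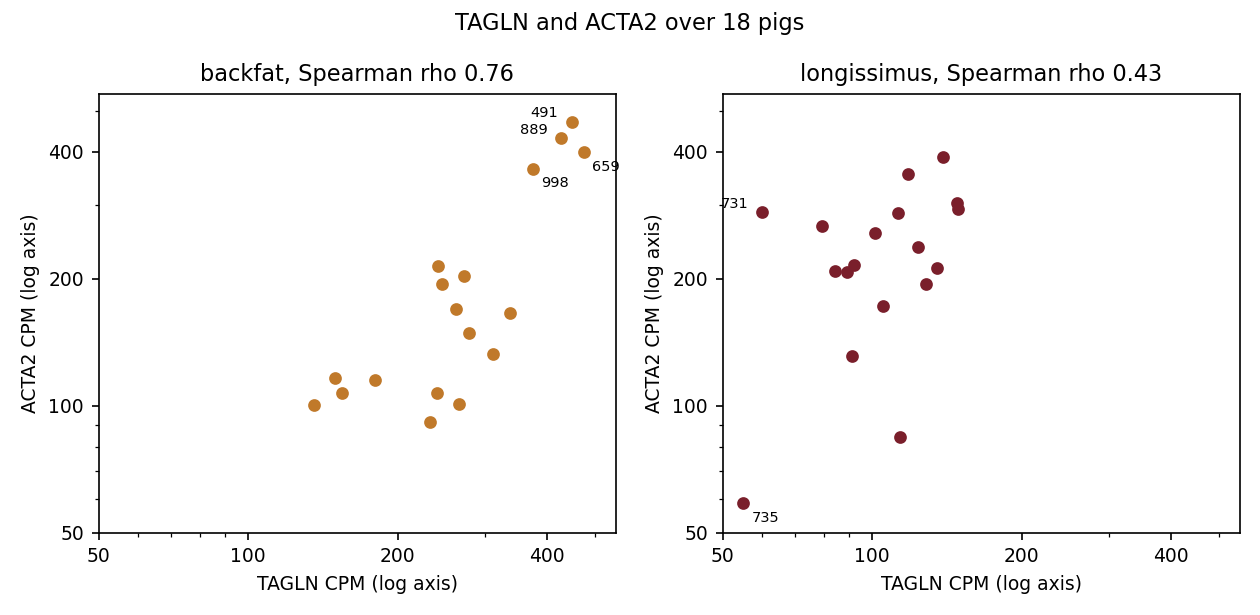
TAGLN against ACTA2 in backfat (left) and longissimus (right) of 18 pigs, in CPM on log axes, 1 point a library. In backfat Sample_491, Sample_659, Sample_889 and Sample_998 lie together at the top right, at 365 to 472 CPM of ACTA2, while in longissimus Sample_735 lies lowest on both axes.

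No relation of SYNPO2 with TAGLN or ACTA2 passed in either tissue. In backfat its rho was -0.0568 with TAGLN (p = 0.821, adjusted p = 0.925, permutation test) and -0.123 with ACTA2 (p = 0.627, adjusted p = 0.947, permutation test). Pearson's r was -0.425 with TAGLN (p = 0.0761, adjusted p = 0.318, permutation test) and -0.230 with ACTA2 (p = 0.370, adjusted p = 0.731, permutation test). Without the 2 pigs farthest from the median these became -0.345 and -0.153. In longissimus rho was -0.189 with TAGLN (p = 0.449, adjusted p = 0.864, permutation test) and 0.410 with ACTA2 (p = 0.0920, adjusted p = 0.354, permutation test). Pearson's r in longissimus was 0.118 with TAGLN (p = 0.639, adjusted p = 0.878, permutation test) and 0.628 with ACTA2 (p = 0.00682, adjusted p = 0.0675, permutation test), and without the 2 farthest pigs these were -0.350 and 0.290. For the last relation these pigs were Sample_735 and Sample_572, which had the lowest ACTA2 levels in muscle, and rho without them was 0.276. Leaving out the lowest levels narrows the range, so the drop does not show what the relation rests on. Neither pair passed the test of a difference between tissues: the difference in rho was 0.132 for TAGLN with SYNPO2 (adjusted p = 0.748, permutation test) and -0.533 for ACTA2 with SYNPO2 (p = 0.143, adjusted p = 0.216, permutation test).

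In backfat SYNPO2 went with skeletal actin instead. Its rho with ACTA1 was 0.820 (p = 6e-05, adjusted p = 0.00764 over all genes correlated with ACTA1, permutation test), and r was 0.838 (p = 1e-05, the lowest value 100000 permutations allow, adjusted p = 0.00122). Of all genes, 1.02% correlated positively and 0.0794% negatively with ACTA1 past the threshold. Adjusted over the genes correlated with SYNPO2, the same relation had an adjusted p of 0.0582 (permutation test). Sample_731 and Sample_391 were highest for both genes, with 17526 and 8155 CPM of ACTA1 and 165 and 112 CPM of SYNPO2. Without them r was 0.736, and without the 4 pigs Sample_731, Sample_391, Sample_176 and Sample_911 rho was 0.684 (p = 0.00854, adjusted p = 0.420, permutation test).

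SYNPO2 nevertheless spanned a narrower range than ACTA1. As a percentage of the same pig's longissimus level, backfat SYNPO2 had a lowest value of 0.921% (Sample_991), a median of 2.09% and a highest value of 7.68% (Sample_731). For ACTA1 these percentages were 0.0296%, 0.668% and 8.36% in the same order. The SYNPO2 percentage was above the ACTA1 percentage in 15 pigs and below it in 3. The 8 backfat libraries with under 300 CPM of ACTA1 still held 19.5 to 46.8 CPM of SYNPO2. Which cells carried that remainder was not tested.

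Neither TAGLN nor ACTA2 passed the test for a relation with ACTA1 in backfat. With ACTA1 the rho of TAGLN was -0.139 (p = 0.579, adjusted p = 0.834, permutation test) and that of ACTA2 was -0.286 (p = 0.247, adjusted p = 0.616, permutation test). Pearson's r was -0.348 for TAGLN (p = 0.158, adjusted p = 0.516, permutation test) and -0.332 for ACTA2 (p = 0.180, adjusted p = 0.545, permutation test), or 0.0524 and -0.186 without Sample_731 and Sample_391. ACTA1 ranged 335-fold over these libraries, and the 4 with the highest ACTA2 level held 131 to 796 CPM of it.

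In longissimus, a relation added after the data had been seen, ACTA2 did go with ACTA1. Spearman's rho was 0.783 (p = 0.00022, adjusted p = 0.0390, permutation test), beside 0.667% of all genes called with positive and 0.094% with negative rho for ACTA1. Pearson's r was 0.920 (adjusted p = 0.00433, permutation test, with p at 1e-05, the smallest possible). Without Sample_735 and Sample_572, lowest for both actins in muscle, r was 0.740 and rho 0.691 (adjusted p = 0.279, permutation test). The call was lost on leaving out any 1 of 10 pigs (Sample_77, Sample_242, Sample_391, Sample_572, Sample_659, Sample_731, Sample_735, Sample_835, Sample_991 and Sample_998), so it lies at the edge of what 18 animals can pass. The difference in rho between the tissues, -1.07, passed its own test (p = 0.00383, adjusted p = 0.0115 over 3 added pairs, permutation test swapping tissues within pigs). Both genes are actins, and the part of shared reads in this relation was not tested.

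For the other members the muscle relation to ACTA1 did not pass on ranks. TAGLN had a rho of 0.110 (p = 0.662, adjusted p = 0.886, permutation test) and an r of 0.269 (p = 0.282, adjusted p = 0.564, permutation test), or an r of -0.0613 without the 2 farthest pigs. SYNPO2 had a rho of 0.651 (p = 0.00433, adjusted p = 0.154, permutation test) and an r of 0.698 (p = 0.00126, adjusted p = 0.0360, permutation test), or an r of 0.547 without the 2 farthest pigs. Scaling by library totals moved the SYNPO2 rho to -0.0485, so its direction there depended on the scaling. The differences in rho were -0.250 for TAGLN (adjusted p = 0.523, permutation test) and 0.169 for SYNPO2 (p = 0.310, adjusted p = 0.466, permutation test).

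**Figure D4:**
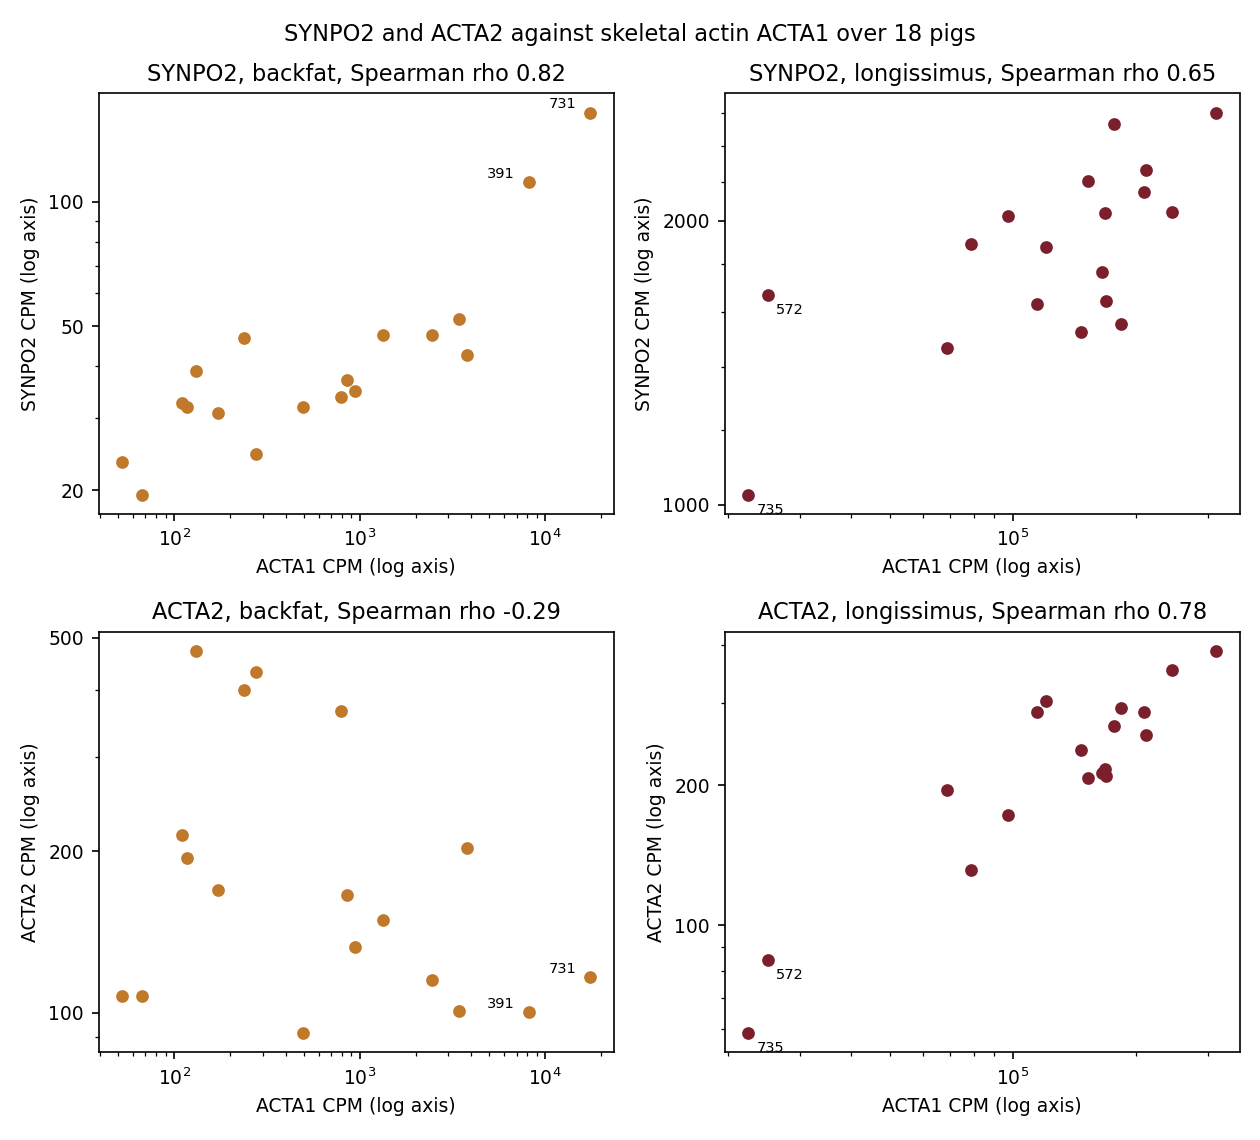
SYNPO2 (top) and ACTA2 (bottom) against ACTA1 in backfat (left) and longissimus (right), in CPM on log axes, 1 point for each of 18 pigs. SYNPO2 rises with ACTA1 in backfat (rho 0.820), ACTA2 does not (rho -0.286), and in longissimus ACTA2 rises with ACTA1 (rho 0.783), with Sample_735 and Sample_572 far to the left.

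No member passed the test for a relation between a pig's fat and its muscle. Between the tissues of a pig, rho was 0.230 for TAGLN (p = 0.355, adjusted p = 0.710, permutation test), 0.0402 for ACTA2 (p = 0.874, adjusted p = 0.963, permutation test) and 0.439 for SYNPO2 (p = 0.0699, adjusted p = 0.391, permutation test). Pearson's r was 0.280 for TAGLN (p = 0.261, adjusted p = 0.640, permutation test), 0.120 for ACTA2 (p = 0.651, adjusted p = 0.879, permutation test) and 0.275 for SYNPO2 (p = 0.260, adjusted p = 0.640, permutation test). Without the 2 farthest pigs r was 0.464, -0.0558 and 0.186 in the same order. Of 11109 genes expressed in both tissues, 0.54% passed with positive rho.

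The genes nearest to each member differed between members and between tissues. In backfat, among 6100 genes with a symbol and a mean of at least 10 CPM, those with the highest rho to TAGLN were CSRP1 (0.864), GALT (0.847), RANGAP1 (0.769), ACTA2 (0.761) and MGAT4B (0.742). No gene passed the adjusted threshold with TAGLN (0.0% of genes in either direction), although 1880 of 12601 had an unadjusted p under 0.05. CSRP1 and GALT fell just short of it (adjusted p = 0.0540, permutation test), so the lack of calls does not show a lack of relations. Nearest to ACTA2 were CNN1 (0.845), NFE2L3 (0.845), SUSD2 (0.833) and MYH11 (0.816), of which CNN1, NFE2L3 and SUSD2 passed (adjusted p = 0.0473, permutation test, with 0.0635% of genes called). Nearest to SYNPO2 were ACTC1 (0.917), TPM2 (0.895), TPM1 (0.876), SH3BGR (0.853) and ACTN2 (0.849), and all of these passed, with 0.0873% of genes called. ACTC1, TPM1, TPM2 and the alpha-actinin gene ACTN2 encode parts of the striated sarcomere.

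In longissimus the genes nearest to TAGLN were SLC12A4 (0.841), ACKR3 (0.814), CD209 (0.767), PLS3 (0.721) and BLVRB (0.721), and no gene passed (0.0% in either direction, 932 with an unadjusted p under 0.05). For ACTA2 they were the collagen genes COL5A3 (0.905) and COL4A2 (0.899), then AFAP1L2 (0.878), ACTG2 (0.878) and MCAM (0.868), all past the threshold (adjusted p = 0.0130, permutation test) beside 0.752% of genes with positive and 0.393% with negative rho. For SYNPO2 they were UBE2V1 (0.905), CDK16 (0.858), TTC4 (0.833), SLC25A39 (0.829) and EVI5L (0.808). None of these passed (0.0% in either direction, 1307 with an unadjusted p under 0.05). UBE2V1, CDK16 and TTC4 fell just short of the threshold (adjusted p = 0.0502, permutation test). COL5A3 passed with ACTA2 at the same rho of 0.905, since the adjusted p also depends on how many other genes have a small p. No gene was among the 5 nearest of the same member in both tissues.

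Read by lists, the members had different companions in backfat. Over all 12601 genes, 1880 had an unadjusted p under 0.05 with TAGLN, 910 with ACTA2 and 1070 with SYNPO2. The shares that passed the adjusted threshold with positive rho were 0.0%, 0.0635% and 0.0873% in the same order. With SYNPO2 the 11 sarcomere genes had rho between 0.711 and 0.839 (median 0.794), of which 3 passed and all 11 had an unadjusted p under 0.05. The 7 Z-disc genes had a median of 0.771, of which 1 passed and 5 had an unadjusted p under 0.05. With TAGLN and ACTA2 the sarcomere medians were -0.168 and -0.321, and none of 11 passed, nor had any an unadjusted p under 0.05. The smooth muscle list had a median rho of 0.381 with TAGLN (0 of 14 passed, 7 had an unadjusted p under 0.05) and of 0.397 with ACTA2 (1 of 14 passed), against -0.0196 and -0.0237 over all genes. With SYNPO2 that median was -0.0444, and the genes of it that passed were TPM1 and TPM2. Among SYNPO2's autophagy partners in backfat HSPB8 had a rho of 0.781 (adjusted p = 0.0904, permutation test), FLNC 0.455 and BAG3 0.379, and none of 6 passed, with 1 at an unadjusted p under 0.05.

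Fibroblast genes leaned the other way from TAGLN in backfat. The 9 fibroblast and myofibroblast genes had rho between -0.831 and -0.143 with TAGLN (median -0.523), and 0 passed, with 5 at an unadjusted p under 0.05. Of all 12601 genes in backfat, 1880 had such a p with TAGLN. With ACTA2 the median of the 9 genes was -0.205. In longissimus the medians were 0.451 with TAGLN and 0.560 with ACTA2, again with none passing (3 and 6 at an unadjusted p under 0.05). Of all 11702 genes in longissimus, 932 and 2143 had such a p with TAGLN and ACTA2. The 7 pericyte genes had a median rho of 0.622 with ACTA2 in longissimus and of 0.143 in backfat. In longissimus MCAM passed, beside 0.752% of all genes with positive rho. The difference between tissues was not tested for these lists.

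**Figure D5:**
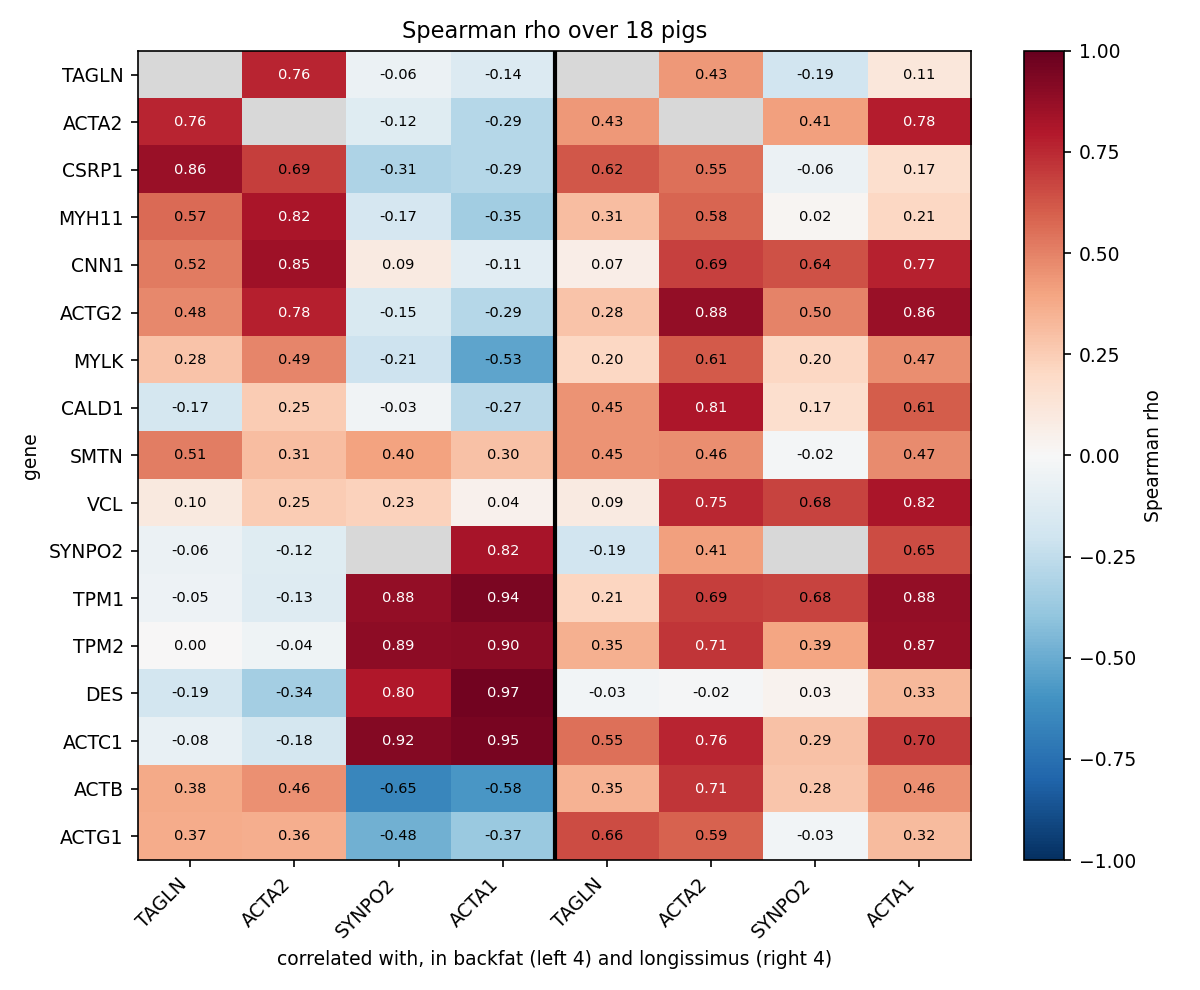
Spearman's rho over 18 pigs of smooth muscle and actin genes (rows) with TAGLN, ACTA2, SYNPO2 and ACTA1 (columns) in backfat (left of the line) and longissimus (right); red is positive, blue negative, grey a gene with itself. In backfat ACTA2 goes with CNN1 (0.845) and MYH11 (0.816) and SYNPO2 with TPM1, TPM2 and ACTC1 (0.876 to 0.917), while in longissimus ACTA2 has positive rho with most rows.

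The 4 backfat samples highest in TAGLN and ACTA2 were also the 4 highest in some other contractile genes. They held 92.1 to 205 CPM of MYH11, with the next library at 78.8 CPM, 94.8 to 147 CPM of CNN1, with the next at 55.9 CPM, and 119 to 233 CPM of ACTG2, with the next at 56.6 CPM. KCNMB1 followed with 5.03 to 13.6 CPM, with the next library at 4.62 CPM. Over all 12602 genes, 61 (0.484%) had their 4 highest backfat libraries in these pigs. SYNPO2 was not among them, at 24.5 to 46.8 CPM in the 4 pigs, and neither were ACTA1, CALD1, VCL, TPM1, TPM2, DES, MYLK, CSRP1 or SMTN. Of the 15 matched smooth muscle list genes, 6 had all of their 4 highest libraries in these pigs, TAGLN and ACTA2 included. Another 2 (MYLK and CSRP1) had 3 of them, 1 (SMTN) had 2, 1 had 1 and 5 had 0. The share over all genes was not computed for these lower tallies.

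Some epithelial genes had their highest levels in the same samples. Of 14 matched genes on an epithelial list added after the data had been seen, 4 had all of their 4 highest backfat libraries in these pigs, 6 had 3 of them, 2 had 2, 1 had 1 and 1 had 0. The adhesion gene EPCAM was among the first of these (19.2 to 43.6 CPM, with the next library at 18.3 CPM), as were the keratin gene KRT8 (35.2 to 52.3 CPM, with the next at 30.0 CPM), KRT18 (15.72 to 25.5 CPM, with the next at 15.68 CPM, nearly a tie) and ESRP1. The tight junction gene CLDN4 was the one with none, at 26.4 to 63.3 CPM in the 4 pigs and up to 141 CPM in another. CLDN7, the one with 1, was at 0 CPM in 17 of 18 backfat libraries, so its tally rests on ties. ELF3 and ELF5 were also low, with backfat medians of 0.775 and 0.852 CPM. Over all 12602 genes 0.484% had all 4, but only 6 of the 14 met the expression filter behind that share. No such share was computed for the lower tallies. The summed level of the 14 matched genes in backfat had a lowest value of 41.6 CPM (Sample_991), a median of 119 CPM and a highest value of 318 CPM (Sample_491), against 12.4, 25.5 and 55.1 CPM in longissimus, where EPCAM was at 0 in 15 of 18 libraries. The epidermal factor gene TP63 ran the other way between tissues, with a median of 1.04 CPM in backfat and 14.99 CPM in longissimus, where the median of the whole sum was 25.5 CPM. The 6 of these genes expressed widely enough to be correlated had a median rho of 0.639 with ACTA2, 0.504 with TAGLN and -0.214 with SYNPO2. None passed, with 5, 4 and 0 at an unadjusted p under 0.05, beside 910, 1880 and 1070 of all 12601 genes. The relation of TAGLN with ACTA2 in backfat was also computed with the EPCAM level removed, and its value is given in the closing section. The part of epithelial RNA in the levels of TAGLN and ACTA2 was not tested.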

How the data were processed

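RNA of backfat and longissimus dorsi from 18 pigs (36 libraries) was extracted with a MagMAX kit and made into TruSeq libraries read for 100 nt at both ends, per the labels' protocols. Strand is not said to have been kept, so overlapping and antisense genes cannot be told apart. Per the submitters' processing notes, GSNAP and HTSeq were used; the sources used here give no version, build or annotation. The deposited table, named as unique counts, holds expected counts that the authors did not normalise, in steps of 0.5 (35.1% of values not whole), and they were rounded here. Counts in no annotated gene made up 34.5% ± 5.60 of a backfat and 19.9% ± 4.01 of a longissimus library (SD, n = 18 each). These and other lines that name no gene, 5 in all, stayed out of library sizes. Symbols were matched for 11804 of 25322 identifiers.

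Tissues were compared with edgeR 4.0.16 (R 4.3.3; trimmed-mean factors, default filter, robust quasi-likelihood fit, tissue alone in the design), with DESeq2 1.42.0 as an alternative and an adjusted p of 0.05 as the threshold. The SE is the log2 difference over the square root of F. The fit was tested on simulated data. Correlations used log2 CPM (prior count 2) of genes with at least 1 CPM in 15 of 18 libraries of a tissue, in Python 3.11.15 with NumPy 2.4.6 and pandas 2.3.3. Figures used Matplotlib 3.10.9. The libraries of a pig come from 1 animal, so pig numbers pair them, and the deviations of a pig's own pair correlated at 0.236 on average (0.0973 to 0.359), against -0.0138 with other pigs. Named genes are the members, ACTA1, actin and transgelin relatives, the 4 most abundant genes of each of 11 lists and the 5 nearest to each member by rho, of which 1 is not reported here. Further list genes, the epithelial list, the ACTA1 relations in longissimus and the sets of pigs left out were chosen after their values were seen. The members and all lists were chosen with earlier results of these data known.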

Additional observations from a re-analysis of the deposited data

Results flagged for a closer look

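The relation of ACTA2 with ACTA1 differed between the tissues. Spearman's rho was -0.286 in backfat and 0.783 in longissimus, a difference of -1.07 (p = 0.00383, adjusted p = 0.0115 over 3 pairs, permutation test swapping the tissues within pigs). By the same test it was -0.857 without Sample_731, Sample_391, Sample_176 and Sample_911 and -0.965 without Sample_572 and Sample_735, and neither passed the adjusted threshold. The pair was added after the data had been seen.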

How the results depend on the processing

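Alternatives to 26 results numbered 188, leaving aside those without 1 pig. Of these, 162 were rated unchanged, 15 changed sign, 5 came to pass and 6 no longer passed. Unchanged means the same direction and call, except for the counts of smooth muscle list genes higher in each tissue. Those were rated only by how far the count moved, so single genes could change within them. With library totals they were rated unchanged at 9 in backfat and 5 in longissimus, against 6 and 7. For each change the cause was not tested. The log2 difference of ACTA2, -0.19, was 1.27 with library totals, 0.031 without Sample_731, Sample_391, Sample_176 and Sample_911, and -0.72 without Sample_491, Sample_659, Sample_889 and Sample_998, which lowers it by construction. TAGLN and SYNPO2 kept sign and call in every fit run. With pig number as a block, the differences were 1.35 for TAGLN, -0.29 for ACTA2 and -5.51 for SYNPO2, and the block changed no call of a member, while the smooth muscle list had 5 genes higher in backfat and 7 higher in longissimus, and ACTG2 and SMAD3 lost their calls.

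Among correlations in backfat, TAGLN with ACTA2 passed as Pearson's r (0.809) and with EPCAM removed (0.853). Without the 4 pigs highest in ACTA1, TAGLN with SYNPO2 was 0.380, ACTA2 with SYNPO2 0.253, TAGLN with ACTA1 0.213 and SYNPO2 with ACTA1 0.684, and ACTA2 with SYNPO2 was 0.00516 with ACTA1 removed. In longissimus, TAGLN with SYNPO2 was 0.118 as r and 0.0836 with library totals, and TAGLN with ACTA1 was -0.292 with totals and -0.0529 without Sample_572 and Sample_735. ACTA2 with ACTA1 was 0.732 with the library total removed, 0.776 without the 4 pigs and 0.691 without those 2. SYNPO2 with ACTA1 passed as r (0.698) and was -0.0485 with totals. ACTA2 between tissues was -0.179 without the 2 pigs and -0.172 with EPCAM removed. The difference in rho was -0.543 as r and -0.246 with totals for TAGLN with SYNPO2, 0.844 with totals for SYNPO2 with ACTA1, and -0.857 and -0.965 without the 4 and the 2 pigs for ACTA2 with ACTA1. Leaving out 1 pig at a time gave -0.167 to 0.118 for TAGLN with SYNPO2 in backfat, -0.272 to 0.0196 and -0.0564 to 0.203 for TAGLN with ACTA1 in backfat and longissimus, 0.743 to 0.870 for ACTA2 with ACTA1 in longissimus, and -0.140 to 0.184 for ACTA2 between tissues.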
